A study of Homo sapiens with 42 samples.

Results

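Nuclear pre-ribosomal RNA was compared between 4 libraries of AC16, a human cell line labelled cardiomyocyte-like. Members were chosen by their labels: the 2 nuclear libraries of cells with an inducible hairpin against RPL3 (shRPL3), and the 2 nuclear libraries of cells with that hairpin and a wild-type RPL3L construct (RPL3L-WT), of 42 libraries in the series. All cells were given doxycycline (dox) at 1 ug/ml, so both groups carry the induced hairpin and differ by the RPL3L construct. The hairpin cells were kept by hygromycin selection and the RPL3L cells were then sorted by a BV421 signal. Whether either line is a pool or a clone is not stated. The other 8 nuclear libraries came from the lines with RPL3L variants G27D, R161W, T189M and D308N in the same hairpin cells, 2 each, and the remaining 30 libraries are whole-cell polyA RNA. The series holds no nuclear library of cells without the RPL3 hairpin, so the values below have no unperturbed control beside them. The labels do not say that replicates came from separate cultures, so p-values measure only the spread between these samples.

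RNA polymerase I transcribes the rRNA genes as one long precursor. The 18S rRNA of the small subunit and the 5.8S and 28S rRNAs of the large subunit lie in that order within it, between an external transcribed spacer at each end (5'ETS and 3'ETS) and the internal transcribed spacers ITS1 and ITS2. The external spacers are cut off early, cleavage in ITS1 parts the small-subunit from the large-subunit precursors, and ITS2 stays on the large-subunit side until the 5.8S and 28S rRNAs are finished. RPL3 is a large-subunit protein that joins these precursors early, and RPL3L is its paralog of heart and skeletal muscle.

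The authors counted reads over 7 regions of a 45S precursor reference. Their region ends fit the length of RNA45SN1 on the plus strand at chr21:8433222-8446572 (GRCh38.p14), which has 13351 bases. From its start, the 5'ETS covers positions 1 to 3654, 18S 3655 to 5523, ITS1 5524 to 6600, 5.8S 6601 to 6757, ITS2 6758 to 7924, 28S 7925 to 12990 and the 3'ETS 12991 to 13351. The 18S, 5.8S and 28S regions have the same ends as the RefSeq genes RNA18SN1, RNA5-8SN1 and RNA28SN1. The 3'ETS is thus short, with 361 bases, and 28S is the longest, with 5066. The other copies of the rRNA gene have near-identical sequence, so counts cannot be assigned to one locus.

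The 5.8S rRNA is shown because it lies between the internal spacers, ITS1 before it and ITS2 after it. The copy annotated in GENCODE 29 as RNA5-8SN2 lies at chr21:8439823-8439975, plus strand, at positions 6602 to 6754 of the precursor, and the capitals mark its first and last 10 bases. This copy lies within the counted 5.8S region, positions 6601 to 6757, and does not reach either of its ends, so the capitals stop short of the spacer junctions. The hairpin MIR10396B is shown because it is a RefSeq transcript inside the 5'ETS, at chr21:8436324-8436374, plus strand, positions 3103 to 3153, and all its bases are removed with that spacer. GC makes up 57.5% of the first and 86.3% of the second.
RNA5-8SN2: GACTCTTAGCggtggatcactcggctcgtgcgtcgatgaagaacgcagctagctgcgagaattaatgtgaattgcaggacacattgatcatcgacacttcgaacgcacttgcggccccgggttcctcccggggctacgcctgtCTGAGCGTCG
MIR10396B: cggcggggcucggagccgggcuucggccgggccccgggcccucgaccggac

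The 7 regions together held 10533692 and 11734569 counts in the shRPL3 libraries and 12340594 and 14698375 in the RPL3L-WT libraries, against a range of 8094182 to 14698375 over all 12 nuclear libraries. Values are given as the share of these counts within a library, because a total for the whole library was not used here. A share cannot tell more of one region from less of another, and in bulk RNA fewer cells and less RNA per cell cannot be told apart. Intervals of the share in a single library cover counting error only. Intervals from limma, given for differences between groups, rest on the spread between replicates of the same line, pooled over the 12 nuclear libraries. Replicates of every line differed by more than sampling noise in a chi-square test of their counts, so they were kept as separate libraries.

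Spacer RNA made up a larger share of the rRNA counts in cells with the hairpin alone than in cells with wild-type RPL3L. The 4 spacers held 6.87% and 6.71% of counts in the shRPL3 libraries and 4.83% and 4.77% in the RPL3L-WT libraries. The means were 6.79% ± 0.117 (SD, n = 2) and 4.80% ± 0.0399 (SD, n = 2), a ratio of 1.41. The 3'ETS differed most, at a ratio of mean shares of 3.15, followed by ITS1 (1.77) and the 5'ETS (1.54). ITS2 differed least of the spacers (1.11), and 28S was lower (0.917). Shares of the groups did not overlap in 7 of 7 regions (100.0%), with 6 higher in shRPL3 and 28S lower. The exact two-sided permutation test over the 4 libraries gave p = 0.333 for each region and for the spacer sum, the smallest value that 2 against 2 can give. In edgeR's quasi-likelihood test over all 12 nuclear libraries, 5 of 7 regions (71.4%) passed an adjusted p of 0.05, with 4 higher and 1 lower.

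**Figure D1:**
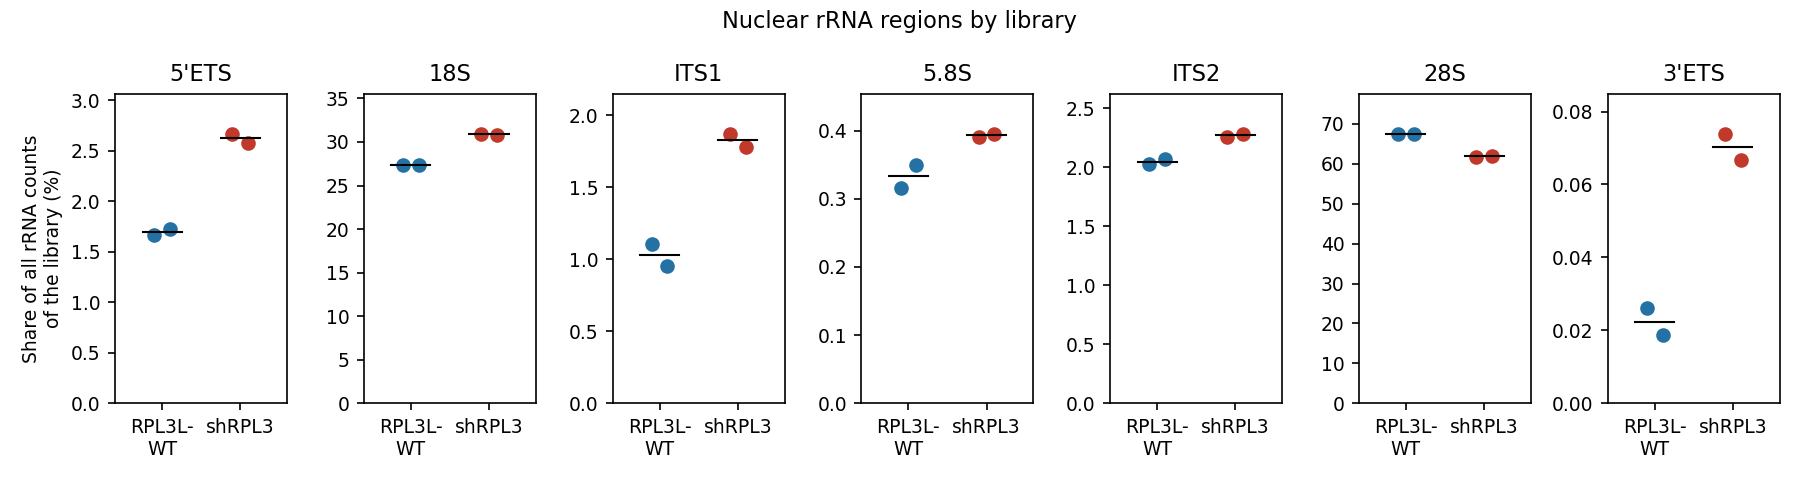
Share of the rRNA counts of a library (percent, linear axes from 0) in each of the 7 regions, for the RPL3L-WT and shRPL3 nuclear libraries; points are libraries and short lines are means of 2. The 3'ETS rose from a mean of 0.0223% to 0.0703% and 28S fell from 67.5% to 61.9%.

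The 3'ETS, the last part of the precursor, stood out among the spacers. It held 7782 and 7820 counts in the shRPL3 libraries, or 0.0739% (95% exact Clopper-Pearson interval 0.0722 to 0.0755) and 0.0666% (0.0652 to 0.0681). In the RPL3L-WT libraries it held 3220 and 2732 counts, or 0.0261% (0.0252 to 0.0270) and 0.0186% (0.0179 to 0.0193). Every shRPL3 value lay above both RPL3L-WT values, which themselves differed by more than their counting intervals. Counts per base averaged 21.6 in shRPL3 and 8.24 in RPL3L-WT. The mean share was 3.15 times as high in shRPL3, and edgeR gave a log2 difference of 1.65 (adjusted p = 7.78e-05). limma on the log2 share gave an interval of 1.31 to 2.03. The 3'ETS was still the rarest region in both groups, at 1.59% of the 28S counts per base in shRPL3 and 0.464% in RPL3L-WT.

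ITS1 and the 5'ETS, the spacers on the small-subunit side, were both higher in shRPL3. ITS1 held 1.87% and 1.78% of counts in the shRPL3 libraries and 1.11% and 0.954% in the RPL3L-WT libraries. Its log2 share was higher by 0.82 (edgeR adjusted p = 9.16e-05), with a limma interval of 0.62 to 1.03. The 5'ETS held 2.67% and 2.58% in shRPL3 and 1.67% and 1.73% in RPL3L-WT. Its log2 share was higher by 0.63 (edgeR adjusted p = 0.000543), with an interval of 0.41 to 0.84. Neither pair of groups overlapped, and the gap between groups was several times the gap between replicates in both spacers. Per base, ITS1 reached 13.9% of the 28S level in shRPL3 and 7.18% in RPL3L-WT, and the 5'ETS 5.87% and 3.49%.

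ITS2, which stays with the large-subunit precursors, moved least of the spacers. It held 2.26% and 2.28% of counts in the shRPL3 libraries and 2.02% and 2.07% in the RPL3L-WT libraries. The log2 difference of 0.15 did not pass (edgeR adjusted p = 0.0595), and its limma interval ran from 0.00 to 0.30. With the 28S counts as library size it was 0.28 and passed (adjusted p = 0.00627). With the 18S counts it was -0.02, and with DESeq2's size factors -0.23. These values are relative to another reference and are not shares. The ITS2 share itself was higher in shRPL3, while its direction relative to other regions rests on the scaling. Among the spacer counts alone, ITS2 made up 32.9% and 34.0% in shRPL3 and 41.9% and 43.3% in RPL3L-WT. The 5'ETS made up 38.8% and 38.4% against 34.6% and 36.3%, ITS1 27.2% and 26.5% against 22.9% and 20.0%, and the 3'ETS 1.08% and 0.994% against 0.541% and 0.390%. None of these 4 sets of values overlapped between the groups. ITS2 was thus the most abundant spacer by counts in RPL3L-WT, and the 5'ETS, the longest spacer, in shRPL3. Per base, ITS2 was the highest spacer in both groups, at 15.9% of the 28S level in shRPL3 and 13.2% in RPL3L-WT.

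Of the mature rRNAs, 18S took a larger share and 28S a smaller share in shRPL3. The 28S region held 61.8% and 62.1% of counts in the shRPL3 libraries and 67.5% in both RPL3L-WT libraries, a log2 difference of -0.12 (edgeR adjusted p = 0.00109). The 18S region held 30.9% and 30.8% against 27.3% and 27.4%, a log2 difference of 0.17 (adjusted p = 0.00137). The 5.8S region held 0.391% and 0.395% against 0.316% and 0.349%. Its log2 difference of 0.24 did not pass (adjusted p = 0.201), with a limma interval of -0.16 to 0.65. Fitted on the 4 libraries of both groups alone, all 7 regions passed, 5.8S among them at 0.24 (adjusted p = 0.0398) and ITS2 at 0.15 (adjusted p = 0.00701), so both calls depend on whether the variant lines enter the estimate of the spread. Scaling mattered for these regions. DESeq2's size factors, set by the median region, moved the median log2 difference of the 7 regions by -0.38 and gave 3 regions higher (5'ETS, ITS1 and 3'ETS) and 3 lower (18S, ITS2 and 28S). There 18S was at -0.21 and 5.8S at -0.14. With TMM, 18S was at 0.09 and did not pass (adjusted p = 0.261). The 3'ETS, ITS1 and 5'ETS stayed higher and 28S lower, all past the threshold, under every alternative scaling in which they were tested.

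**Figure D2:**
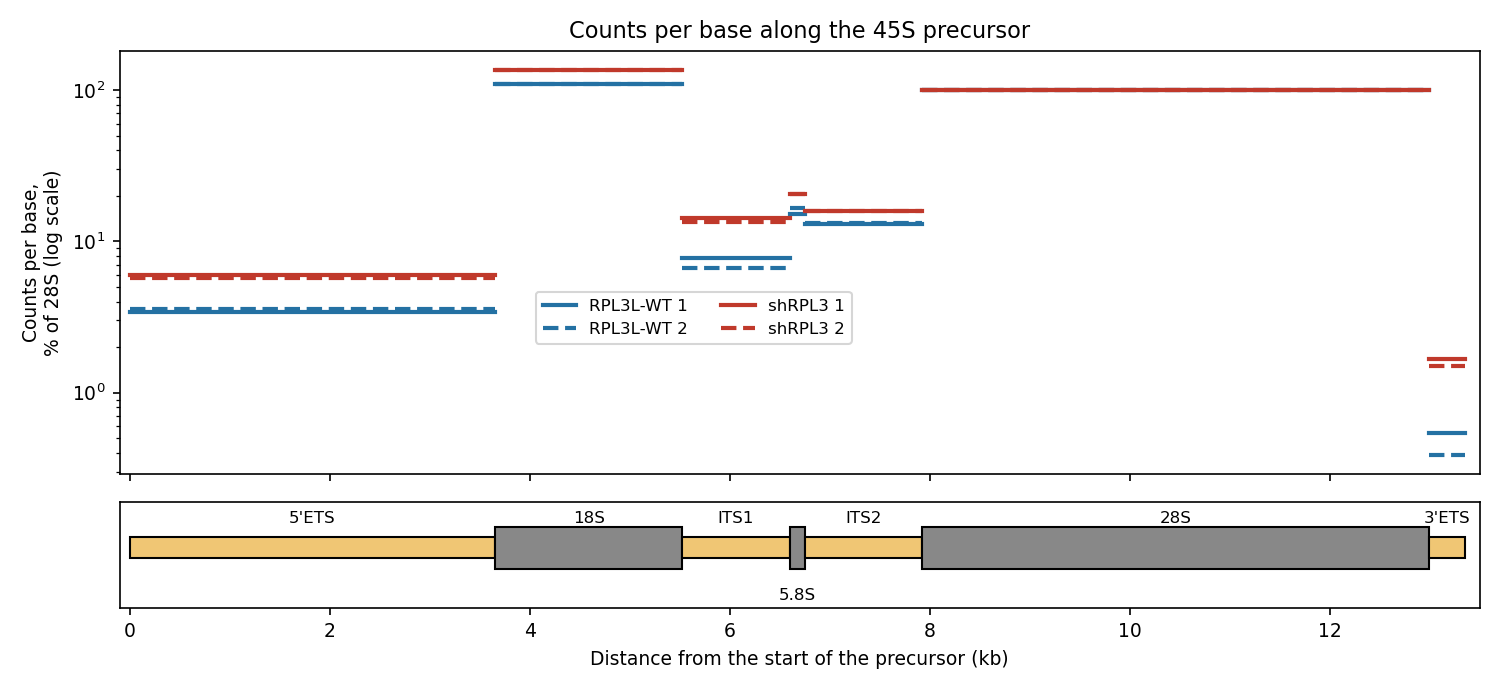
Counts per base in each region of the 45S precursor, as percent of the 28S value of the same library (log axis), against distance from the start of the precursor in kb, with the regions drawn to scale below; each line is 1 library of shRPL3 or RPL3L-WT. The 3'ETS, at a mean of 1.59% against 0.464%, lies furthest apart between the groups, and ITS1, at 13.9% against 7.18%, comes next.

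Ratios of counts per base within a library do not depend on the library size and were tested for 12 pairs of regions. All 12 were without overlap between groups (100.0%), and 9 of 12 (75.0%) passed an adjusted p of 0.05 in limma, 8 higher and 1 lower in shRPL3. The exact permutation test over the 4 libraries gave p = 0.333 for each ratio, its smallest possible value. The ratios are built from the same 7 region counts and share regions, so they are not separate results. The ratio of all spacers to all mature regions was 0.0836 and 0.0814 in shRPL3 and 0.0575 and 0.0567 in RPL3L-WT, a log2 difference of 0.53 (95% interval 0.32 to 0.74, adjusted p = 0.000393). Set against the mature rRNA next to it, each of 3 spacers was clearly higher. The 3'ETS:28S ratio was 0.0168 and 0.0151 in shRPL3 and 0.00542 and 0.00386 in RPL3L-WT, a log2 difference of 1.80 (interval 1.48 to 2.11, adjusted p = 1.15e-06). The ITS1:18S ratio was 0.105 and 0.1001 against 0.0702 and 0.0604, a log2 difference of 0.65 (0.41 to 0.90, adjusted p = 0.00034). The 5'ETS:18S ratio was 0.0441 and 0.0428 against 0.0312 and 0.0323, a log2 difference of 0.45 (0.20 to 0.70, adjusted p = 0.00425).

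On the large-subunit side, the ratios around 5.8S separated the internal spacers. ITS1:5.8S was 0.697 and 0.656 in shRPL3 and 0.510 and 0.398 in RPL3L-WT, a log2 difference of 0.59 (SE 0.15, limma adjusted p = 0.00454). ITS2:5.8S was 0.778 and 0.777 against 0.861 and 0.796, a log2 difference of -0.09 whose interval ran from -0.37 to 0.19 (adjusted p = 0.495). ITS2:28S was 0.159 and 0.160 against 0.130 and 0.133, a log2 difference of 0.28 (adjusted p = 0.0139). That call was lost without either shRPL3 library (adjusted p = 0.0671 and 0.0753). The 18S:28S ratio was 1.36 and 1.35 in shRPL3 and 1.10 in both RPL3L-WT libraries, a log2 difference of 0.30 (interval 0.13 to 0.47, adjusted p = 0.00454). 5.8S:28S differed by 0.37 with an interval of 0.01 to 0.72 and did not pass after adjustment (adjusted p = 0.0547). It passed without the second RPL3L-WT library (adjusted p = 0.0409) and on the 4 libraries alone (adjusted p = 0.0153).

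The spacers did not differ by the same amount. ITS1:ITS2 was 0.896 and 0.844 in shRPL3 and 0.592 and 0.500 in RPL3L-WT, a log2 difference of 0.68 (interval 0.46 to 0.90, limma adjusted p = 0.00013). The ratio of the 5' to the 3' external spacer was 3.57 and 3.82 in shRPL3 and 6.32 and 9.20 in RPL3L-WT, a log2 difference of -1.05 (interval -1.38 to -0.71, adjusted p = 0.00013). The RPL3L-WT replicates lay further apart in this ratio than the shRPL3 replicates did. The 5'ETS:ITS1 ratio was 0.421 and 0.427 against 0.445 and 0.535, a log2 difference of -0.20 that did not pass (interval -0.45 to 0.04, adjusted p = 0.106). It was -0.33 and passed without the first RPL3L-WT library (adjusted p = 0.0213), and -0.07 without the second (adjusted p = 0.576). The increase was therefore steeper at the 3'ETS than at the 5'ETS, and steeper at ITS1 than at ITS2.

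**Figure D3:**
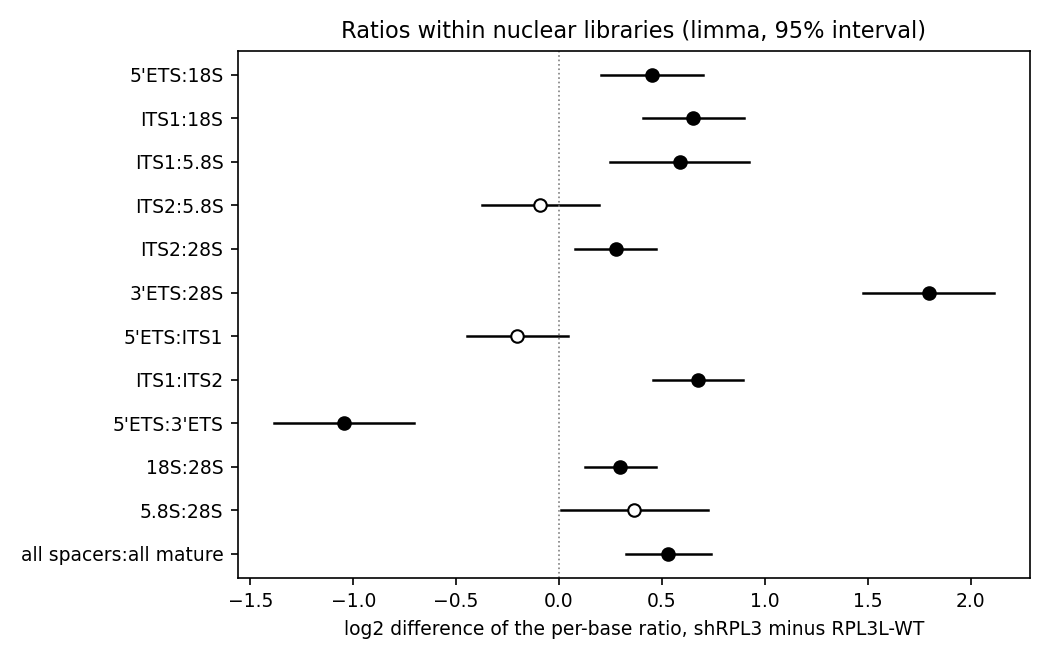
Log2 difference (shRPL3 minus RPL3L-WT) of the 12 ratios of counts per base within nuclear libraries, with the 95% interval of the limma fit; 2 libraries a group. 3'ETS:28S lies furthest to the right at 1.80 and 5'ETS:3'ETS furthest to the left at -1.05, and the intervals of ITS2:5.8S and 5'ETS:ITS1 cross 0.

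The variant lines place these values among the 6 nuclear lines. These comparisons share the shRPL3 libraries with the one above and are set side by side with it. RPL3L-WT had the lowest mean share of the 5'ETS, ITS1, ITS2 and 5.8S of all 6 lines, and the next to lowest of the 3'ETS. Spacers held a mean of 4.80% of counts in RPL3L-WT, 5.32% in T189M, 6.40% in R161W, 6.79% in shRPL3, 8.40% in G27D and 8.91% in D308N. For the 3'ETS the order from high to low was G27D (0.0865% ± 0.00871, SD, n = 2), shRPL3 (0.0703% ± 0.00512), D308N (0.0367% ± 0.00237), R161W (0.0301% ± 0.00137), RPL3L-WT (0.0223% ± 0.00531) and T189M (0.0193% ± 0.000517). The shRPL3 line had the highest mean 18S share and only the next to lowest share of ITS2.

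Against the mean of the 4 variant lines, shRPL3 differed in 4 of 7 regions (57.1%), 2 higher and 2 lower in edgeR's test. The 3'ETS was higher by 0.93 on the log2 scale (adjusted p = 0.000431) and 18S by 0.17 (adjusted p = 0.00107). ITS2 was lower, at -0.24 (adjusted p = 0.00585), as was 28S, at -0.06 (adjusted p = 0.0138). ITS1, at 0.11 (adjusted p = 0.193), and the 5'ETS, at -0.03 (adjusted p = 0.723), did not pass. Both means average lines that differed from shRPL3 in opposite directions. The 5'ETS was at 0.55 against T189M, 0.14 against R161W, -0.41 against G27D and -0.39 against D308N. In the same order ITS1 was at 0.75, 0.19, -0.22 and -0.27. The T189M and D308N values passed in edgeR for both spacers, and the G27D value for the 5'ETS. Of the 12 ratios, 4 (33.3%) passed in limma: 3'ETS:28S at 0.99 (adjusted p = 3.89e-05), ITS1:ITS2 at 0.35 (0.0041), 18S:28S at 0.23 (0.0114) and 5'ETS:3'ETS at -0.96 (5.24e-05). The 3'ETS passed under all 9 alternatives. The 28S call was lost with TMM (adjusted p = 0.305), with DESeq2 (0.188) and without the first or second shRPL3 library (0.122 and 0.0898). The 18S call was lost with DESeq2 (0.188), and the ITS2 call without the first shRPL3 library (0.0532), so that 2 of 7 regions passed without the first and 3 without the second.

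No single line stood nearest to shRPL3 throughout the 12 ratios. By the log2 distance between line means, R161W was nearest in 6 ratios, G27D in 5 and D308N in 1. The ratios share regions, so these counts are not separate results. The D308N case was 5.8S:28S, where its libraries stood at 0.250 and 0.163, around the 0.204 and 0.205 of shRPL3. The R161W libraries stood at 0.207 and 0.210 there. G27D was nearest in ITS1:ITS2, 5'ETS:3'ETS, 3'ETS:28S, 18S:28S and ITS1:5.8S, and R161W in both small-subunit spacers against 18S, 5'ETS:ITS1, ITS2 against 5.8S and 28S, and all spacers against mature regions. ITS1:ITS2 averaged 0.870 in shRPL3, 0.850 in G27D, 0.735 in D308N, 0.721 in R161W, 0.546 in RPL3L-WT and 0.484 in T189M. 5'ETS:3'ETS averaged 3.69 in shRPL3 and 3.99 in G27D, and from 7.76 to 9.26 in the other 4 lines. ITS1:18S averaged 0.102 in shRPL3, 0.104 in R161W and 0.123 in G27D, and 5'ETS:18S 0.0434, 0.0457 and 0.0593. These distances are descriptions, since the lines were ordered by the values themselves. In contrasts with each variant line, the 3'ETS share was higher in shRPL3 than in D308N by 0.94 (edgeR adjusted p = 0.00145), than in R161W by 1.22 (adjusted p = 0.000551) and than in T189M by 1.86 (adjusted p = 3.62e-05). Against G27D it was at -0.30 and did not pass (adjusted p = 0.149), while the 5'ETS (-0.41) and ITS2 (-0.26) shares were lower in shRPL3 (both adjusted p = 0.0183). In all, 2 of 7 regions (28.6%) and 3 of 12 ratios (25.0%) passed against G27D, 3 of 7 (42.9%) and 3 of 12 (25.0%) against R161W, and 5 of 7 (71.4%) and 8 of 12 (66.7%) against each of T189M and D308N.

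**Figure D4:**
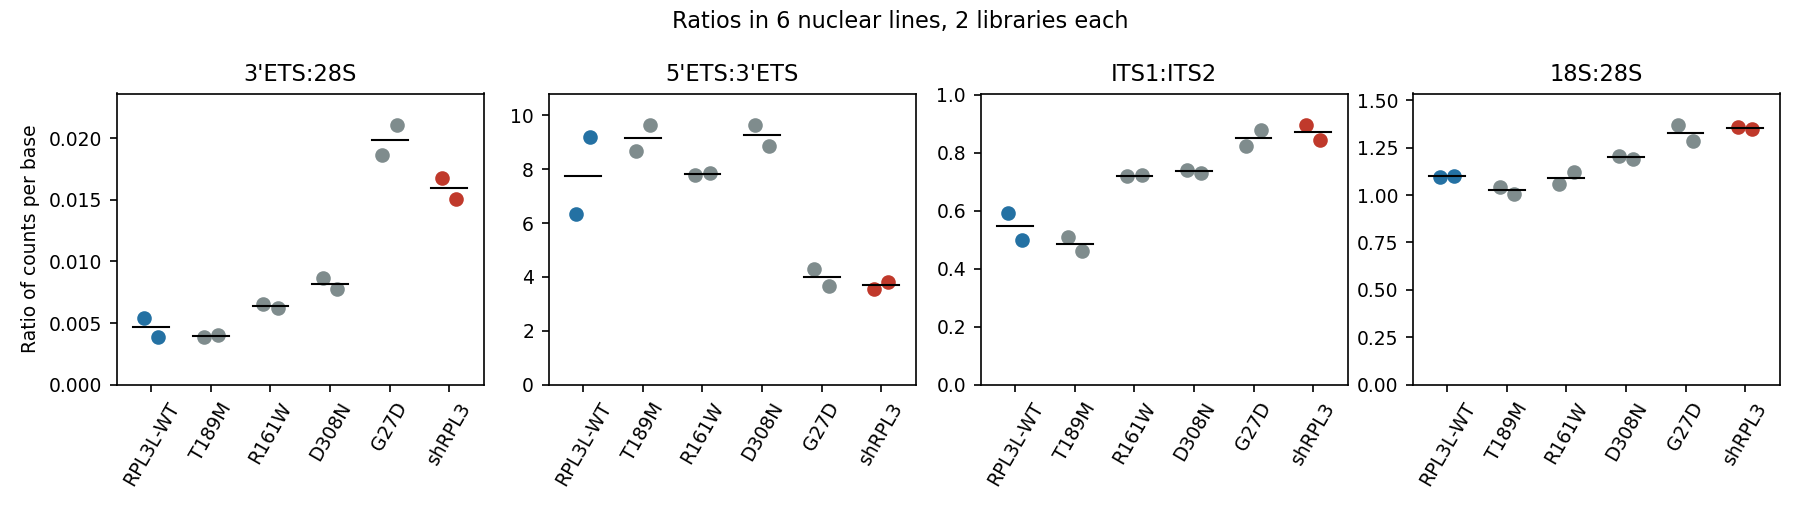
Ratios of counts per base (linear axes from 0) in the 6 nuclear lines; points are libraries, 2 a line, and short lines are their means. The 4 ratios shown are a part of the 12; shRPL3 and G27D have means of 0.870 and 0.850 for ITS1:ITS2 and of 3.69 and 3.99 for 5'ETS:3'ETS.

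The mRNAs of the targeted gene and the construct could be read only in the whole-cell polyA libraries of the same lines, 3 each. Both lines carry the induced hairpin, so comparing them does not measure the knockdown of RPL3. The libraries with a scrambled hairpin were not set beside them here. RPL3 (chr22:39312882-39319623) stood at 539, 500 and 570 TPM (a length-corrected share of a library's transcripts) in shRPL3 and at 445, 439 and 673 in RPL3L-WT. The groups overlapped, and limma on log2(TPM + 1) gave a difference of 0.07 (adjusted p = 0.781). RPL3L (chr16:1943974-1954689) stood at 0.0290, 0.0353 and 121 TPM in shRPL3 and at 2982, 2791 and 3798 in RPL3L-WT. The third shRPL3 library thus held far more RPL3L than the other two, though every RPL3L-WT library was higher still. Whole-cell libraries fell into 2 kinds by the level of 452 pseudogenes, and the first and second RPL3L-WT libraries were of the smaller kind, which holds 6 of 30 libraries. With that kind as a term, RPL3 was at -0.36 (limma adjusted p = 7.24e-07), so its direction turns with the model. All 3 shRPL3 libraries were of the larger kind, and only the third RPL3L-WT library shared it. The effect of the kind was estimated within the lines that hold both kinds: RPL3L-WT, G27D, R161W and T189M. The direction of RPL3 also turned without the first or the second RPL3L-WT library, at -0.02 and -0.03. The labels do not tie the nuclear to the whole-cell libraries, and the kind of the nuclear ones was not tested.

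The polyA libraries also measured the mRNAs of the factors that make and cut the precursor, 147 genes in 7 lists. In whole cells 4359 of 14426 genes tested (30.2%) were higher in shRPL3 and 833 (5.77%) lower, with a median log2 difference of 0.19. With the kind as a term the counts were 2901 (20.1%) and 905 (6.27%), with a median of 0.10. After median-ratio scaling they were 1697 (11.8%) and 1804 (12.5%). Without the first RPL3L-WT library 2499 were higher and 512 lower, and without the second 2314 and 507. Of the 147 listed genes 72 were higher (49.0%) and 2 lower in the pooled fit, 65 (44.2%) and 2 with the kind as a term, and 21 (14.3%) and 10 after median-ratio scaling. In all, 45 were higher in both of the first 2 fits. The surplus of higher calls is thus large before scaling and close to the background after it. Over all genes, the shares higher to set beside the lists are 30.2% (pooled), 20.1% (kind as a term) and 11.8% (median-ratio scaling). Gene values below give the pooled log2 difference and then the one with the kind as a term.

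Of 15 genes of RNA polymerase I transcription, 6 were higher and 1 lower in the pooled fit, where 30.2% of all genes tested were higher. The list median was 0.24, near the 0.19 of all genes. After median-ratio scaling 4 were higher and 3 lower, with a list median of 0.03. RRN3, the initiation factor TIF-IA, stood at 47.8, 50.0 and 48.9 TPM in shRPL3 and at 26.3, 26.7 and 38.6 in RPL3L-WT. The RRN3 groups did not overlap, as was so for 5920 of all genes tested (41.0%), and it was higher by 0.68 (SE 0.12, limma adjusted p = 0.000308) and 0.43. POLR1C, a subunit shared by polymerases I and III, was higher by 0.49 and 0.39, and the polymerase I subunit POLR1H by 0.54 and 0.25. UBTF, which binds the rDNA promoter and gene body, went the other way. It stood at 67.5, 68.6 and 70.1 TPM in shRPL3 and at 86.6, 81.2 and 75.6 in RPL3L-WT, and its log2 difference was -0.23 (adjusted p = 0.00482).

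Factors that act on the 5'ETS, chiefly the small-subunit processome, had 17 of 38 genes higher and 0 lower in the pooled fit, and 17 and 0 with the kind as a term. Their median was 0.29, and 0.07 after median-ratio scaling, where 7 were higher and 1 lower. The shares of all genes that were higher in these 3 fits were 30.2%, 20.1% and 11.8%. UTP20, a processome scaffold, stood at 24.1, 26.0 and 24.8 TPM in shRPL3 and at 15.1, 14.9 and 20.2 in RPL3L-WT, without overlap. Such a lack of overlap was found for 41.0% of all genes tested. UTP20 was higher by 0.56 (SE 0.095, limma adjusted p = 0.000167) and 0.41. The processome helicase DHX37 was higher by 0.58 and 0.39, and the processome protein WDR75 by 0.43 and 0.35. For ITS1, 8 of 14 genes were higher and 0 lower, with 5 and 0 with the kind as a term and 3 and 0 after median-ratio scaling. RPP14, a protein of RNase P and MRP, was higher by 0.52 and 0.44, and RPP38, of the same complexes, by 0.67 and 0.30. PDCD11, the human counterpart of yeast Rrp5, was higher by 0.47 and 0.27.

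Of 12 genes of 18S 3' end maturation 6 were higher and 0 lower, yet after median-ratio scaling 0 were higher and 1 lower. The list median was 0.13, below the 0.19 of all genes, and -0.09 after that scaling. Of all genes tested, 30.2% were higher in the pooled fit and 20.1% with the kind as a term. After median-ratio scaling 11.8% were higher and 12.5% lower. NOB1, the nuclease that makes the 3' end of 18S, stood at 98.6, 98.3 and 98.4 TPM in shRPL3 and at 70.0, 81.4 and 75.5 in RPL3L-WT. It was higher by 0.38 (limma adjusted p = 0.000523), and that call was lost after median-ratio scaling, at 0.16 (adjusted p = 0.106). For ITS2, 17 of 24 genes were higher and 0 lower, with 11 and 0 with the kind as a term and 2 and 1 after median-ratio scaling. The exosome subunit EXOSC9 was higher by 0.39 and 0.42 and the exosome helicase MTREX by 0.34 and 0.34. Both lost the call after median-ratio scaling, at 0.17 (adjusted p = 0.127) and 0.12 (adjusted p = 0.347).

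Early large-subunit assembly factors had 17 of 35 genes higher and 1 lower, with a median of 0.20, and 5 higher and 3 lower after median-ratio scaling. NOP2, an rRNA methyltransferase, stood at 85.7, 86.7 and 92.4 TPM in shRPL3 and at 53.3, 51.0 and 59.7 in RPL3L-WT. It was higher by 0.68 (SE 0.096, limma adjusted p = 2.51e-05) and 0.55, and by 0.46 after median-ratio scaling. FTSJ3, another rRNA methyltransferase, was lower, at -0.37 and -0.20, from 72.0, 70.5 and 55.4 TPM in RPL3L-WT to 49.4, 50.1 and 51.9 in shRPL3. Among 9 snoRNP proteins 1 was higher in the pooled fit, FBL, the box C/D methyltransferase, by 0.50 (limma adjusted p = 0.0134), and 0 lower. Over all genes tested, 30.2% were higher in that fit. With the kind as a term 5 of the 9 were higher and 0 lower, and after median-ratio scaling 0 and 1. FBL lost the call after median-ratio scaling, at 0.28 (adjusted p = 0.0645), and without the first or the second RPL3L-WT library. UBTF, RPP38, PDCD11, MTREX, FTSJ3 and FBL lost theirs in a fit of the 6 libraries alone. RRN3, POLR1C, POLR1H, UTP20, DHX37, WDR75, RPP14 and NOP2 kept sign and call under all 12 alternatives. The kind as a term is among those 12 and was also used to choose the named genes, so passing it was fixed in advance.

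**Figure D5:**
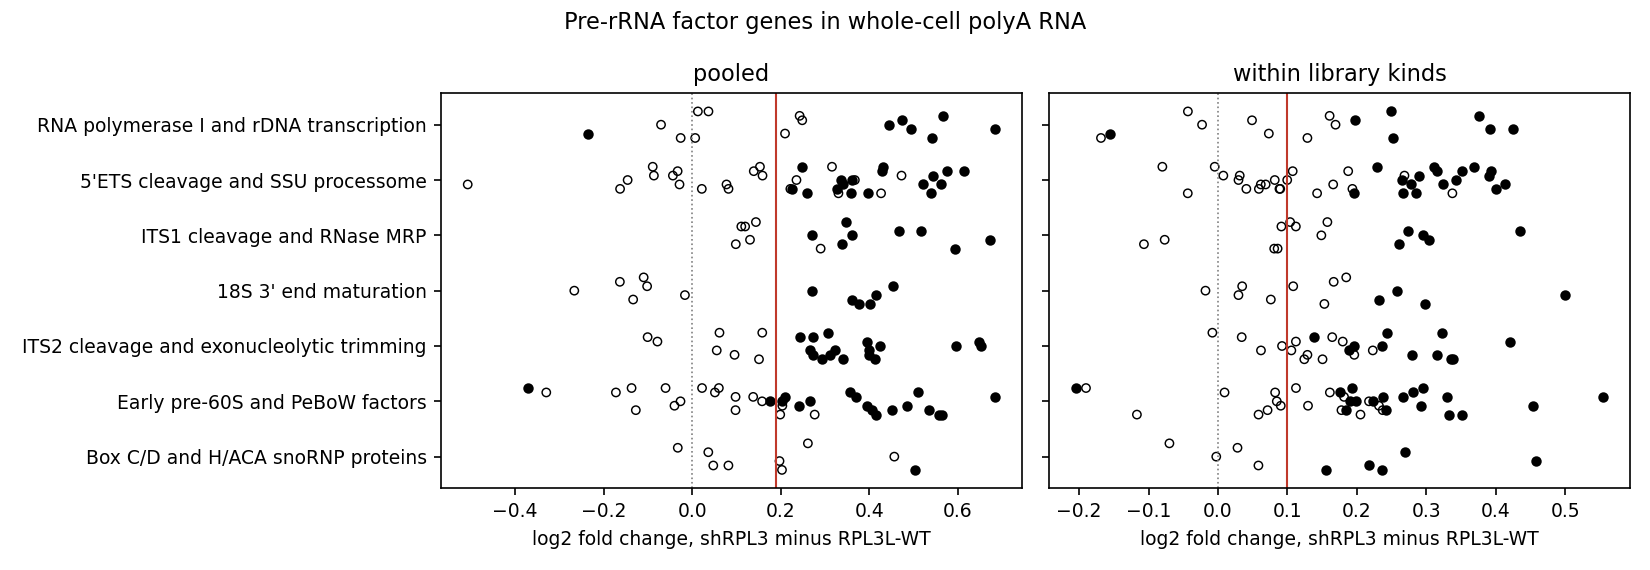
Log2 fold change (shRPL3 minus RPL3L-WT) of the 147 pre-rRNA factor genes in whole-cell polyA RNA, one row per list, in the pooled fit and with the library kind as a term; points are genes, filled where the adjusted p is under 0.05. The red line is the median of all genes tested, 0.19 and 0.10. Filled points were called against 0 and not against that line, so their place beside it is no test of the lists.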

How the data were processed

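Per the labels' protocols, neither polyA pull-down nor removal of rRNA was applied to the nuclear RNA. The authors deposited counts per region of a 45S reference and, for whole-cell polyA RNA, TPM per gene. Per the submitters' processing notes, the tools were Bowtie, bedtools, kallisto and bcl2fastq 2.19. The build, the aligner settings, the counting of pairs and the treatment of reads that span a region's end (which bears most on short regions) were not given in the sources used here.

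Region counts were fitted with edgeR 4.0.16 (quasi-likelihood, 6 groups of 2 libraries, library size the sum of 7 regions, no dispersion trend), and log2 ratios with limma 3.58.1. TPM were fitted as log2(TPM + 1) with limma (trend, robust) over 30 libraries in 10 groups, for genes with a mean of at least 1 TPM. Tests were two-sided, with Benjamini-Hochberg adjustment over all regions, ratios or genes and a threshold of 0.05. The scripts were tested on simulated data. Alternatives used DESeq2 1.42.0, TMM, other library sizes, a replicate block and left-out libraries. Of each gene list, up to 4 members past the threshold in both fits, with at least 5 TPM in the higher group, were eligible to be named, and up to 2 of the opposite sign. RPL3 and RPL3L were named always. Members and lists were chosen with earlier results of these data known. Contrasts with single variant lines were added after seeing the data. 6 construct sequences were left out of 60612 TPM entries.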

Additional observations from a re-analysis of the deposited data

How the results depend on the processing

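The counts of regions (5 of 7) and ratios (9 of 12) past the threshold between shRPL3 and RPL3L-WT stayed within 1.5 times under each alternative run. All 7 regions passed in a fit of the 4 libraries alone, where 5.8S and ITS2 were gained. With DESeq2's size factors the log2 difference turned to -0.21 for 18S, -0.14 for 5.8S and -0.23 for ITS2, and with 18S as library size to -0.0233 for ITS2. Those differences are relative to another reference, and the shares of these regions were higher in shRPL3. Against the variant lines, the 5'ETS turned to 0.0351 with 28S as library size and ITS1 to -0.0522 with 18S. There 2 of 7 regions passed with DESeq2, and 2 to 3 when either shRPL3 library was left out. Whole-cell genes higher in shRPL3 numbered 2901 with the library kind as a term, 1697 after median-ratio scaling, 1176 in a fit of the 6 libraries alone, and 2314 to 5765 with 1 library left out. Those lower numbered 1804 after median-ratio scaling, 273 in the 6 libraries alone, and 507 to 1196 with 1 left out. RPL3 turned to -0.36 with the kind term, -0.15 after median-ratio scaling, and ranged from -0.0325 to 0.275 with 1 library left out, at -0.0229 and -0.0325 without the first or second RPL3L-WT library. The cause was not tested. The replicate block gave 5 regions, 9 ratios, and 4290 genes higher and 808 lower, and changed no region's call. The first replicates of both nuclear groups deviated together over the 7 regions (r = 0.92), but the labels share only a number. With 2 libraries a group, the spread rests on all 6 lines, and the 3'ETS on 2732 to 7820 counts a library.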
